A study of Mus musculus with 24 samples.

Results

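Cartilage and growth plate genes other than collagens are described here in bone after proton irradiation: Acan, Hapln1, Epyc, Comp, Matn1, Matn3, Chad, Sox9, Ihh and Pth1r. They were taken by name, through the GENCODE M21 annotation, and all 10 were found among the 55471 genes listed for each library. RNA came from bone and skin of female mice 10 weeks old in a series on a mouse sarcoma model, and polyA-selected libraries were sequenced. Bone libraries fell into 4 labelled F-PRT, taken to mean FLASH proton radiotherapy with its ultra-high dose rate, 4 labelled S-PRT, taken to mean standard proton radiotherapy at a conventional dose rate, and 4 Untreated, and skin gave the same 3 groups of 4. The labels call the libraries of a group biological replicates and state no strain, dose, time after irradiation or part of the skeleton. Total expected counts ran, in megacounts, from 15.15 to 16.58 in bone F-PRT, 13.83 to 17.36 in bone S-PRT and 10.91 to 16.21 in Untreated bone, and from 16.42 to 22.09 in skin.

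Cartilage grows at the growth plate, where chondrocytes divide in columns, enlarge and are replaced by bone. SOX9 is the transcription factor that chondrocytes need to form and to express their matrix, which is built of collagen fibrils and of aggrecan bound to hyaluronan. Indian hedgehog (Ihh), secreted by chondrocytes about to enlarge, induces PTHrP, which acts through the receptor Pth1r to hold back enlargement. Since bulk RNA was measured, fewer cells of a type and less RNA per cell cannot be told apart.

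All 10 genes passed the filter on low counts in bone. Of them, 2 rose after F-PRT and 4 after S-PRT relative to Untreated bone, and 0 fell in either. Chad, which encodes the matrix protein chondroadherin, and Sox9 rose after both beams, while Comp and Matn1 passed the test after S-PRT. Genes called in either direction made up 32.7% of the 18848 genes tested for F-PRT and 28.5% for S-PRT. Calls in the upward direction alone were 15.5% of genes for F-PRT and 13.3% for S-PRT, and those in the downward direction 17.2% for F-PRT and 15.2% for S-PRT. The median log2 change over the 10 genes was 0.86 after F-PRT and 1.27 after S-PRT, beside -0.01 over all tested genes in both. The beams share the Untreated libraries, so the pair of comparisons is not independent. Ihh had log2 changes of -0.36 after F-PRT and 0.17 after S-PRT, neither past the test.

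The start regions of 8 of the 10 genes are in the RefSeq table of build GRCm38.p6, which has no entry for Comp and Sox9. The 250 bases before each start were searched on both strands. Sequences of Chad, the gene with the smallest adjusted p in both beam comparisons, of Acan, the main proteoglycan, and of both Epyc starts are shown because they span the range of base composition and hold the matches found. Capitals mark the TATA box, searched as TATAAA. They also mark the core of the sequence that SOX proteins bind, searched as AACAAT and read as ATTGTT where it lies on the minus strand. The regions are Chad at chr11:94564797-94565046, Acan at chr7:79052976-79053225, and Epyc at chr10:97643818-97644067 (first start) and chr10:97646853-97647102 (second start), all on the plus strand.
Chad: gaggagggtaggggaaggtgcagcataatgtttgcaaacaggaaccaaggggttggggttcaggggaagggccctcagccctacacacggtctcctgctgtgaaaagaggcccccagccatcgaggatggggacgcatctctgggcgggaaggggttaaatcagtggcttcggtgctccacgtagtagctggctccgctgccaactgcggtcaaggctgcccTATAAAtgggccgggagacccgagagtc
Acan: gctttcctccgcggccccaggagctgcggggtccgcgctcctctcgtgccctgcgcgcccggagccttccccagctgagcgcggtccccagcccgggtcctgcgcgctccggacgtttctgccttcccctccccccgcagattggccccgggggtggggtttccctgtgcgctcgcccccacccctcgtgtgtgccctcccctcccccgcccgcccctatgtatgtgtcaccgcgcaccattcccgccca
Epyc, first start: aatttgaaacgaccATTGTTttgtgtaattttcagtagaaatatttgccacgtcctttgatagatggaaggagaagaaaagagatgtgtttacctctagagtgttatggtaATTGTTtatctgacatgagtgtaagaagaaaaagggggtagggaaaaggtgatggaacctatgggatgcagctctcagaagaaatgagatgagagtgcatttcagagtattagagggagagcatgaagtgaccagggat
Epyc, second start: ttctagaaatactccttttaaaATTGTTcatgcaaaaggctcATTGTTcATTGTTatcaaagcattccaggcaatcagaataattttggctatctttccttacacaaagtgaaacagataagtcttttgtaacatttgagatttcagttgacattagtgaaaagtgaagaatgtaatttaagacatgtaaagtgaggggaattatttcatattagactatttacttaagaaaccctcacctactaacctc
The Chad region held TATAAA 28 bases before the start, and this motif, on either strand, was present in 12.4% of all 32851 windows of this length. The SOX core was found in 1 of the 8 genes, Epyc, on the minus strand. At the first start it lay 236 and 139 bases before the start, and at the second 228, 208 and 201 bases before it. It was present in 9.42% of all windows. G and C made up 60.4% of the Chad region, 74.4% of the Acan region and 39.2% and 31.2% of the Epyc regions, against a median of 52.4% over all windows. A match is letters alone and says nothing of binding here.

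Levels are given as CPM, counts relative to library size scaled by the trimmed mean of M values (TMM), with the 4 libraries in the order of their replicate numbers. Changes are edgeR quasi-likelihood log2 fold changes with their standard error (SE), and p-values are Benjamini-Hochberg adjusted over all tested genes, with 0.05 as the threshold. In GENCODE M21, on build GRCm38, Acan lies at chr7:79053483-79115099, Chad at chr11:94565047-94569127, Sox9 at chr11:112782224-112787760, Comp at chr8:70373558-70382066 and Matn1 at chr4:130944385-130955475. Acan encodes aggrecan, the large proteoglycan that gives cartilage its resistance to compression. It had 116, 145, 28.8 and 201 CPM after F-PRT and 148, 177, 144 and 227 CPM after S-PRT, against 135, 51.5, 56.1 and 41.2 CPM in Untreated bone. Every S-PRT library thus lay above every Untreated library. F-PRT 3 lay below all Untreated libraries, while Untreated 1 lay above F-PRT 1. The log2 change was 0.80 (SE 0.47, adjusted p = 0.213) after F-PRT and 1.30 (SE 0.47, adjusted p = 0.0537) after S-PRT. Without F-PRT 3 the adjusted p was 0.0274 for F-PRT and 0.0102 for S-PRT. Without Untreated 1 it was 0.0328 for F-PRT and 0.00716 for S-PRT, and without F-PRT 4 it was 0.0481 for S-PRT. Other left-out fits took it as high as 0.514 for F-PRT and 0.133 for S-PRT. F-PRT 3 was the lowest F-PRT library and Untreated 1 the highest Untreated one. Leaving either out thus widens the gap or narrows the spread by construction, here and for the genes below.

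Hapln1 encodes the link protein that fastens aggrecan to hyaluronan. It had 53.0, 79.5, 10.8 and 95.1 CPM after F-PRT and 55.1, 70.3, 79.9 and 102 CPM after S-PRT, against 64.9, 19.3, 28.1 and 16.3 CPM in Untreated bone. Its libraries ordered much as those of Acan did, with F-PRT 3 lowest of all and Untreated 1 above F-PRT 1 and S-PRT 1. The log2 change was 0.91 (SE 0.53, adjusted p = 0.215) after F-PRT and 1.27 (SE 0.53, adjusted p = 0.0936) after S-PRT. The adjusted p fell to 0.0307 for F-PRT and 0.0228 for S-PRT without F-PRT 3, and to 0.0359 for F-PRT and 0.0139 for S-PRT without Untreated 1. Other left-out fits took it as high as 0.469 for F-PRT and 0.213 for S-PRT. Epyc, which encodes epiphycan, a small leucine-rich proteoglycan of the growth plate, was scarce. Its libraries had 1.23, 3.66, 0.365 and 2.86 CPM after F-PRT and 1.54, 2.35, 2.59 and 2.09 CPM after S-PRT, against 2.6, 0.534, 1.2 and 0.201 CPM in Untreated bone. The groups overlapped, and neither the F-PRT change of 0.92 (SE 0.67, adjusted p = 0.312) nor the S-PRT change of 1.00 (SE 0.67, adjusted p = 0.29) passed the test.

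**Figure D1:**
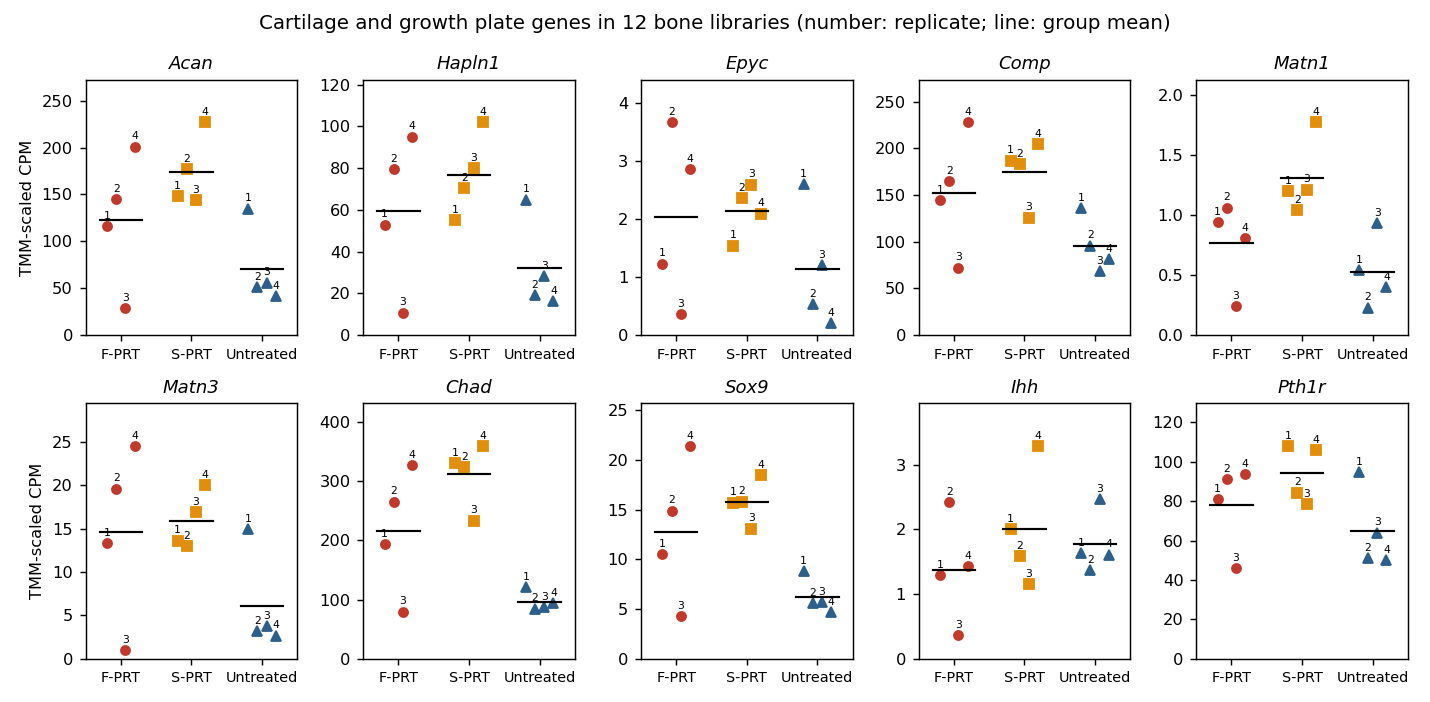
TMM-scaled CPM (linear axis from 0) of the 10 genes in the 12 bone libraries, as points numbered by replicate, with a line at the mean of each group of 4. F-PRT 3 is the lowest F-PRT library in all 10 panels, and Untreated 1 is the highest Untreated library in 8 of them, Matn1 and Ihh being the others.

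Comp and the matrilins Matn1 and Matn3 encode proteins that bridge collagen fibrils and proteoglycans, and Comp is also a gene of tendon. Comp had 145, 165, 72.4 and 228 CPM after F-PRT and 187, 183, 126 and 205 CPM after S-PRT, against 136, 96.0, 68.9 and 81.6 CPM in Untreated bone. Only S-PRT 3 among the S-PRT libraries fell below the highest Untreated value. Comp rose after S-PRT by 0.88 on the log2 scale (SE 0.29, adjusted p = 0.0376), and its F-PRT change of 0.68 (SE 0.29) had an adjusted p of 0.0907. The S-PRT call was lost without S-PRT 1, 2 or 4 (adjusted p = 0.081, 0.062 and 0.0954) and without Untreated 2, 3 or 4 (adjusted p = 0.0769, 0.104 and 0.0904). For F-PRT the adjusted p was 0.0106 without F-PRT 3 and 0.0268 without Untreated 1, and reached 0.288 in other left-out fits.

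Matn3 had 13.3, 19.6, 1.03 and 24.5 CPM after F-PRT and 13.6, 13, 16.9 and 20 CPM after S-PRT, against 14.9, 3.2, 3.73 and 2.68 CPM in Untreated bone. Without Untreated 1 the other 3 Untreated libraries lay below every irradiated library but F-PRT 3. The log2 change of 1.33 after F-PRT (SE 0.68, adjusted p = 0.154) was the largest of the 10 there, and did not pass, nor did that of 1.44 after S-PRT (SE 0.68, adjusted p = 0.132). Without F-PRT 3 the adjusted p was 0.0156 for F-PRT and 0.0287 for S-PRT, and without Untreated 1 it was 0.0193 for F-PRT and 0.0158 for S-PRT. Other left-out fits took it as high as 0.352 for F-PRT and 0.271 for S-PRT. Matn1 was the scarcest member, at 3 to 28 expected counts per bone library. It had 0.941, 1.06, 0.243 and 0.809 CPM after F-PRT and 1.2, 1.04, 1.21 and 1.77 CPM after S-PRT, against 0.542, 0.229, 0.934 and 0.402 CPM in Untreated bone. All S-PRT libraries lay above all Untreated ones, and the F-PRT and Untreated ranges overlapped. Matn1 rose after S-PRT by 1.28 on the log2 scale (SE 0.45), at an adjusted p of 0.0497, and its F-PRT change was 0.52 (SE 0.47, adjusted p = 0.43). That call was lost without any one of F-PRT 1, 2 or 4, S-PRT 1 to 4 or Untreated 1, 2 or 4, with adjusted p from 0.0533 to 0.142.

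Chad encodes a leucine-rich matrix protein to which chondrocytes attach, known from cartilage and also from bone. It had 194, 265, 79.7 and 327 CPM after F-PRT and 330, 324, 233 and 359 CPM after S-PRT, against 121, 84.7, 86.8 and 93.5 CPM in Untreated bone. The lowest S-PRT library stood above the highest Untreated library, and 3 of the 4 F-PRT libraries did as well, while F-PRT 3 was the lowest of all 12. Chad rose 2.24-fold after F-PRT (log2 1.17, SE 0.31, adjusted p = 0.012) and 3.23-fold after S-PRT (log2 1.69, SE 0.32, adjusted p = 0.00154). The F-PRT call held with each single library left out, at a highest adjusted p of 0.045, as did the S-PRT call, at a highest of 0.00664.

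Sox9 had 10.5, 14.9, 4.26 and 21.4 CPM after F-PRT and 15.7, 15.8, 13.1 and 18.5 CPM after S-PRT, against 8.79, 5.64, 5.67 and 4.69 CPM in Untreated bone. Its S-PRT libraries all exceeded its Untreated libraries, and F-PRT 3 again lay below every Untreated library. Sox9 rose after F-PRT by 1.06 on the log2 scale (SE 0.36, adjusted p = 0.039) and after S-PRT by 1.37 (SE 0.36, adjusted p = 0.0128). The F-PRT call was lost without F-PRT 2 or 4 (adjusted p = 0.09 and 0.146) and without Untreated 2, 3 or 4 (adjusted p = 0.0879, 0.085 and 0.0969). It was kept without F-PRT 3, the low library, at a log2 change of 1.35. The S-PRT call held with each library left out.

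Ihh, the ligand, and Pth1r, the receptor that also serves parathyroid hormone on osteoblasts, were the members with the smallest changes after F-PRT and after S-PRT. Ihh had 1.29, 2.42, 0.365 and 1.43 CPM after F-PRT and 2.0, 1.59, 1.15 and 3.29 CPM after S-PRT, against 1.63, 1.37, 2.47 and 1.61 CPM in Untreated bone. Its ranges overlapped throughout, at 6 to 52 expected counts per library. The F-PRT change of -0.36 (SE 0.46) had a 95% interval of -1.35 to 0.62 and an adjusted p of 0.574, and the S-PRT change of 0.17 (SE 0.45) had an interval of -0.79 to 1.13 and an adjusted p of 0.808. Pth1r had 81.0, 91.1, 45.9 and 93.7 CPM after F-PRT and 108, 84.4, 78.5 and 106 CPM after S-PRT, against 94.6, 51.1, 64.0 and 49.9 CPM in Untreated bone. Untreated 1 lay above every F-PRT library and above both lower S-PRT libraries, while 3 of the F-PRT libraries were above the other 3 Untreated ones. Its log2 change was 0.27 after F-PRT (SE 0.23, adjusted p = 0.412) and 0.54 after S-PRT (SE 0.23, adjusted p = 0.103). For S-PRT the adjusted p was 0.0463 without F-PRT 3 and 0.0108 without Untreated 1, and reached 0.241 in other left-out fits. For F-PRT it ran from 0.0703 to 0.666 with 1 library left out.

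Overlap between groups was also counted. After S-PRT 4 of the 10 genes, Acan, Matn1, Chad and Sox9, had every library above every Untreated library, beside 12.1% of all tested genes. After F-PRT 0 of the 10 did, beside 15.0% of all tested genes. F-PRT 3 was the lowest F-PRT library for all 10 genes.

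**Figure D2:**
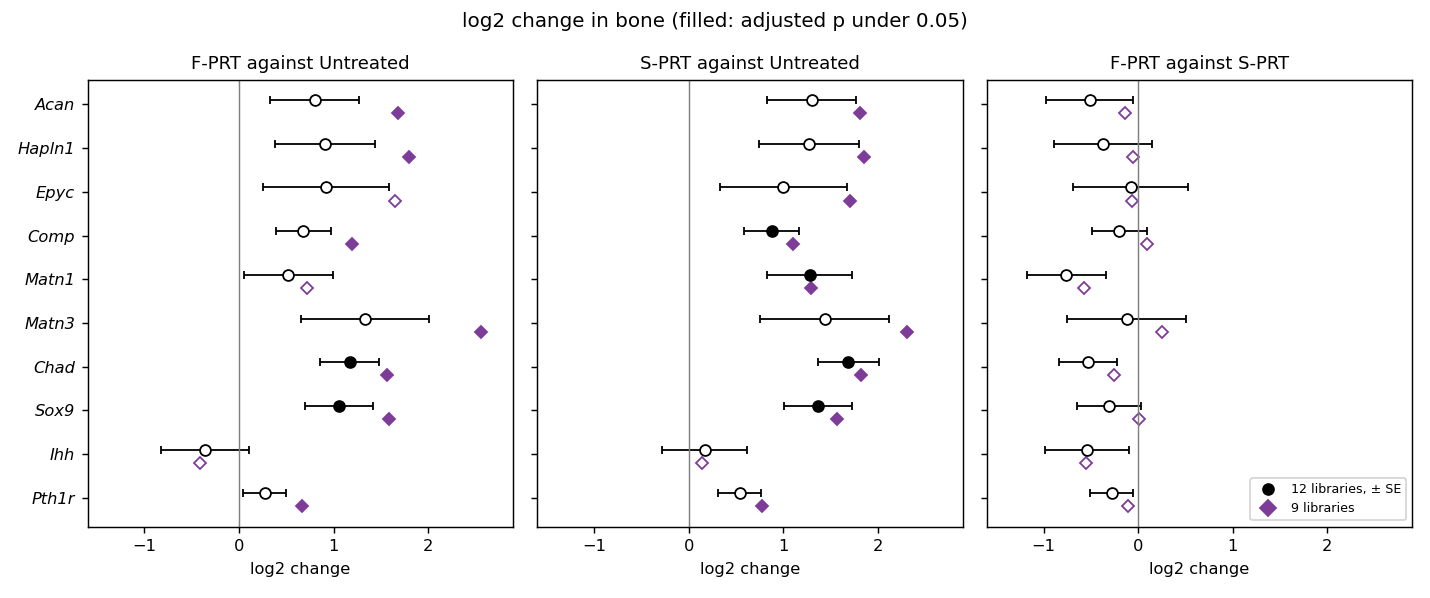
log2 change of the 10 genes in bone for each beam against Untreated (left and middle) and between the beams (right): circles with bars are the fit to 12 libraries with its SE, diamonds the fit without F-PRT 2, F-PRT 3 and Untreated 1, and filled symbols have an adjusted p under 0.05. With 12 libraries 2, 4 and 0 genes are filled, with 9 libraries 7, 9 and 0. F-PRT 3 and Untreated 1 are extreme libraries for most of these genes, so leaving them out moves the groups apart by construction.

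The fit was repeated without 3 of the 12 bone libraries that had high or low sums of markers of other cells. F-PRT 2 had the highest sum of 9 measured keratinocyte genes, 229 CPM, against 4.73 to 7.05 CPM in Untreated bone, F-PRT 3 had the highest sum of 12 muscle genes, 9830 CPM, beside 6670 CPM in S-PRT 1, and Untreated 1 had the lowest granulocyte sum of the Untreated libraries, 3380 CPM. Untreated 2 had the lowest muscle sum, 306 CPM, where the other 11 bone libraries had at least 1850 CPM, and it was kept. Without Untreated 2 alone, 1 of the 10 genes was called after F-PRT and 2 after S-PRT. Over all genes that fit called 4803 of 19256 after F-PRT and 4054 of 19256 after S-PRT. A fit without the first 3 libraries, added with the results above known, called 7 of the 10 genes after F-PRT and 9 after S-PRT, all higher. Over all genes it called 4669 of 19514 after F-PRT and 5835 of 19514 after S-PRT. Acan then changed by 1.68 after F-PRT (adjusted p = 0.000624) and Matn3 by 2.56 (adjusted p = 0.00011). F-PRT 3 and Untreated 1 are also the extreme libraries for the members themselves, so that leaving them out moves the groups apart by construction. Ihh was not called in that fit either, at -0.41 after F-PRT (adjusted p = 0.554) and 0.14 after S-PRT (adjusted p = 0.81).

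Between the beams no member differed past the test. All 10 log2 changes of F-PRT against S-PRT were negative, from -0.08 for Epyc to -0.76 for Matn1, each at an adjusted p of 1, and 0 of the 10 had an unadjusted p under 0.05. Over all tested genes 1 was called, 0.00531%, and 634 had an unadjusted p under 0.05. The called gene was Slfn4, a Schlafen family gene outside the cartilage lists. The median over the members was -0.34, beside 0.01 over all genes. The intervals leave room for sizeable differences in both directions: the 95% interval was -1.19 to 0.14 on the log2 scale for Chad, -1.04 to 0.43 for Sox9, -1.50 to 0.49 for Acan and -1.47 to 1.24 for Matn3. Means were 123 ± 71.7 CPM after F-PRT and 174 ± 38.3 CPM after S-PRT for Acan (SD, n = 4 each), and 216 ± 106 CPM after F-PRT and 312 ± 54.3 CPM after S-PRT for Chad (SD, n = 4 each). Without F-PRT 2, F-PRT 3 and Untreated 1, Comp, Matn3 and Sox9 turned to 0.09, 0.25 and 0.01 on the log2 scale. Without F-PRT 3 alone, Comp, Epyc and Matn3 turned to 0.03, 0.27 and 0.27, and the other members stayed negative. Most members varied together from library to library, as given below, so their signs are not independent.

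Within bone the members varied together from library to library, apart from Ihh. The log2 CPM of each gene was set against the mean of the other 9 over the 12 bone libraries, which share their RNA between genes and differ by treatment, so that the correlations are descriptions. Pearson's r was 0.98 for Acan, 0.97 for Hapln1, 0.96 for Matn3 and Sox9, 0.95 for Pth1r, 0.91 for Chad, 0.89 for Comp, 0.86 for Epyc and 0.84 for Matn1, and 0.55 for Ihh. Outside the list, the 6 protein-coding genes nearest to the members' mean among 12729 candidates were Ibsp at r = 0.984, Col2a1 at 0.979, Snorc at 0.973, Col9a2 at 0.971, Panx3 at 0.967 and Col9a1 at 0.966. Ibsp encodes bone sialoprotein, made by osteoblasts and hypertrophic chondrocytes, and the collagens are those of cartilage fibrils.

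The ratio of Ihh to Acan, in which library scaling cancels, was chosen after the values were seen, restates them, and did not pass its test. Ihh had 11.2, 16.6, 12.7 and 7.14 expected counts per 1000 Acan counts after F-PRT, 13.5, 8.97, 7.96 and 14.5 after S-PRT, and 12.1, 26.6, 44.0 and 39.0 in Untreated bone. Untreated 1 lay within the irradiated range and the other 3 Untreated libraries above it. It averaged 11.9 ± 3.93 after F-PRT, against 30.4 ± 14.2 in Untreated bone (SD, n = 4 each; two-sided exact permutation p = 0.0857, adjusted over 3 comparisons 0.129). For S-PRT, at 11.2 ± 3.24, the exact permutation p against Untreated bone was also 0.0857 (n = 4 each; adjusted 0.129), and 4 libraries against 4 cannot go below 0.0286.

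**Figure D3:**
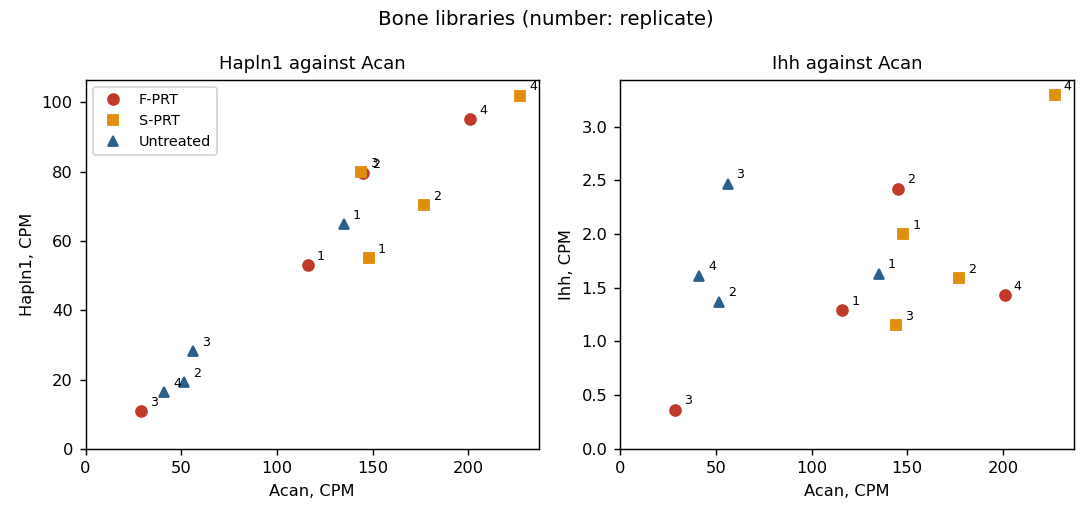
Hapln1 (left) and Ihh (right) against Acan in the 12 bone libraries, all in CPM on linear axes, with symbols for the 3 groups and numbers for replicates. Hapln1 climbs with Acan from F-PRT 3 (28.8 and 10.8 CPM) to S-PRT 4 (227 and 102 CPM), whereas Untreated 3 has 2.47 CPM of Ihh at 56.1 CPM of Acan.

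Cartilage collagens form the fibrils that these matrix proteins bind. Of 8 such genes 0 passed after F-PRT and 0 after S-PRT, with median log2 changes of 0.55 after F-PRT and 0.78 after S-PRT. Over all tested genes 32.7% were called after F-PRT and 28.5% after S-PRT. Col2a1, the main fibril collagen of cartilage, averaged 693 ± 395 CPM after F-PRT and 922 ± 95.6 CPM after S-PRT, against 417 ± 280 CPM in Untreated bone (SD, n = 4 each). Its libraries had 736, 852, 134 and 1050 CPM after F-PRT and 917, 892, 826 and 1050 CPM after S-PRT, against 834, 289, 307 and 236 CPM in Untreated bone, so F-PRT 3 was far below and Untreated 1 far above the rest of its group here too. The F-PRT change of 0.74 (SE 0.50) had an adjusted p of 0.28, which was 0.0346 without F-PRT 3 and 0.0365 without Untreated 1. The S-PRT change of 1.15 (SE 0.50) had an adjusted p of 0.105, which was 0.0206 without F-PRT 3 and 0.0111 without Untreated 1. Other left-out fits took the adjusted p of Col2a1 as high as 0.549 for F-PRT and 0.225 for S-PRT. Col9a1, Col9a2 and Col9a3, which decorate that fibril, stood at 1.17, 1.13 and 1.01 on the log2 scale after S-PRT (adjusted p = 0.218, 0.197 and 0.227), and passed without Untreated 1 (adjusted p = 0.0307, 0.0269 and 0.0237). Col11a1, Col11a2 and Col27a1 were, after S-PRT, at 0.54, 0.38 and 0.52 on the log2 scale (adjusted p = 0.101, 0.306 and 0.339) and adjusted p of 0.00717, 0.0212 and 0.0128 without Untreated 1. Other left-out fits after S-PRT reached adjusted p of 0.403, 0.375 and 0.422 for Col9a1, Col9a2 and Col9a3. They reached 0.233, 0.539 and 0.579 for Col11a1, Col11a2 and Col27a1. After F-PRT Col9a1, Col9a2 and Col9a3 stood at 0.88, 0.81 and 0.66 and Col11a1, Col11a2 and Col27a1 at 0.44, 0.11 and 0.10. Col11a1 passed there without Untreated 1 at an adjusted p of 0.0145, and reached 0.403 in other left-out fits. Col10a1, the collagen of enlarged chondrocytes, had 80.2, 127, 25.1 and 73.5 CPM after F-PRT, 71.0, 90.2, 101 and 158 CPM after S-PRT and 79.6, 76.7, 155 and 70.1 CPM in Untreated bone. Its changes of -0.32 after F-PRT (adjusted p = 0.57) and 0.14 after S-PRT (adjusted p = 0.83) were close in size to those of Ihh.

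Of 20 other cartilage matrix and secreted genes, 19 were tested. Of these, 6 rose and 1 fell after F-PRT, and 12 rose and 0 fell after S-PRT. Over all tested genes 15.5% rose and 17.2% fell after F-PRT, and 13.3% rose and 15.2% fell after S-PRT. Bgn, which encodes biglycan, a proteoglycan of bone and cartilage, had 1650, 2250, 1480 and 1980 CPM after F-PRT and 1750, 1660, 1650 and 2070 CPM after S-PRT, against 626, 580, 679 and 628 CPM in Untreated bone. All irradiated libraries lay above all Untreated ones, F-PRT 3 included, and Bgn rose by 1.55 after F-PRT (SE 0.14, adjusted p = 5.69e-06) and by 1.51 after S-PRT (SE 0.14, adjusted p = 8.38e-06). Fmod, encoding fibromodulin, a regulator of collagen fibrils in cartilage and tendon, rose by 1.19 after F-PRT (SE 0.21) and 1.37 after S-PRT (SE 0.21), and Vit, encoding vitrin, by 0.82 (SE 0.12) and 0.75 (SE 0.12). Cytl1, a secreted protein of chondrocytes, rose by 1.50 after S-PRT (SE 0.36, adjusted p = 0.00769). Xylt1, the enzyme that begins the sugar chains of proteoglycans, fell by 0.48 on the log2 scale after F-PRT (SE 0.14, adjusted p = 0.0183), and lost the call without F-PRT 3, Untreated 3 or Untreated 4 (adjusted p = 0.0542, 0.0523 and 0.0531).

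Of partners of SOX9 and other chondrocyte transcription factors, 12 were tested, and 1 rose and 1 fell in each beam comparison. These counts are below the share over all tested genes, 32.7% called in either direction after F-PRT and 28.5% after S-PRT. Foxc1, a forkhead factor, rose by 0.89 after F-PRT (SE 0.10, adjusted p = 2.57e-05) and by 0.68 after S-PRT (SE 0.10, adjusted p = 0.000268). Sox6, a partner of SOX9 in chondrocytes that red cell precursors also use, had 203, 150, 178 and 115 CPM after F-PRT and 164, 201, 199 and 122 CPM after S-PRT, against 385, 260, 221 and 227 CPM in Untreated bone. It was lower in every irradiated library than in any Untreated one, and fell by 0.76 after F-PRT (SE 0.22, adjusted p = 0.0169) and by 0.67 after S-PRT (SE 0.22, adjusted p = 0.0339). The calls were lost without F-PRT 4 or Untreated 1 after F-PRT (adjusted p = 0.054 and 0.0549) and without S-PRT 1, S-PRT 4, Untreated 1 or Untreated 2 after S-PRT (adjusted p from 0.0582 to 0.115). Erythroid markers fell beside it, 6 of 8 in each comparison, with sums of 16500 to 25000 CPM after F-PRT and 16900 to 27900 CPM after S-PRT, against 47600 to 73000 CPM in Untreated bone, and their part in the fall of Sox6 was not tested.

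In the hedgehog and PTHrP pathway 8 of 21 tested genes rose and 0 fell after each beam, with medians of 0.42 after F-PRT and 0.56 after S-PRT. Over all tested genes 15.5% rose and 17.2% fell after F-PRT, and 13.3% rose and 15.2% fell after S-PRT. Smo, the membrane protein that passes the hedgehog signal inward, rose by 0.75 after F-PRT (SE 0.13, adjusted p = 0.000695) and 0.71 after S-PRT (SE 0.13, adjusted p = 0.00113). Npr2, the receptor through which C-type natriuretic peptide promotes growth plate growth, rose by 0.81 after F-PRT (SE 0.17) and 0.84 after S-PRT (SE 0.17). Gli3 and Evc2, a transcription factor and a ciliary component of hedgehog signalling, rose by 0.67 (SE 0.15) and 0.68 (SE 0.16) after F-PRT. Gli2, another hedgehog transcription factor, and Boc, a hedgehog co-receptor, rose by 0.88 (SE 0.14) and 0.63 (SE 0.14) after S-PRT. Their adjusted p were 0.00311 and 0.00294 for Npr2 after F-PRT and S-PRT, 0.00441 for Gli3, 0.00545 for Evc2, 0.000601 for Gli2 and 0.00367 for Boc. Gli1, a related factor, was not among those that rose. It had 3.18, 4.13, 4.2 and 5.72 CPM after F-PRT and 5.88, 5.11, 4.46 and 6.0 CPM after S-PRT. In Untreated bone it had 9.87, 5.56, 4.87 and 5.29 CPM. Of the 21 genes, 19 had positive log2 changes after F-PRT and 20 after S-PRT, called or not. The genes of hypertrophic cartilage and its turnover numbered 12 tested, of which 3 rose and 1 fell after F-PRT and 4 rose and 1 fell after S-PRT. Genes called in either direction were 32.7% of all tested after F-PRT, close to this list, and 28.5% after S-PRT. Adamts5 and Adamts1, proteases that cut aggrecan, rose by 0.74 (SE 0.10) and 0.89 (SE 0.19) after F-PRT and by 0.63 (SE 0.10) and 0.89 (SE 0.19) after S-PRT. Timp3, an inhibitor of such proteases, rose by 0.37 after F-PRT (SE 0.12, adjusted p = 0.025) and 0.38 after S-PRT (SE 0.12, adjusted p = 0.0254). Its calls were lost without F-PRT 3, F-PRT 4, Untreated 2, 3 or 4 after F-PRT (adjusted p from 0.0574 to 0.0825) and without S-PRT 4, Untreated 2, 3 or 4 after S-PRT (adjusted p from 0.0594 to 0.085). Alpl, the mineralising phosphatase, rose by 0.56 after S-PRT (SE 0.16, adjusted p = 0.0221), lost without S-PRT 4, Untreated 2 or Untreated 4 (adjusted p = 0.0658, 0.0659 and 0.064). Phospho1, another phosphatase of mineralisation, fell by 0.52 after F-PRT (SE 0.15, adjusted p = 0.0176), lost without F-PRT 3 (adjusted p = 0.0548).

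Between the beams none of these lists had a called gene. Those of smallest p in each list included Col10a1 at -0.46, Cilp2 at -0.44, Cytl1 at -0.59, Nkx3-2 at -0.76, Foxc1 at 0.21, Gli2 at -0.27, Gli1 at -0.32, Panx3 at -0.40 and Adamts5 at 0.10, each at an adjusted p of 1 in F-PRT against S-PRT.

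Markers of several other cell types also changed after irradiation, some higher and some lower. For the counts that follow, 15.5% of all tested genes rose and 17.2% fell after F-PRT, and 13.3% rose and 15.2% fell after S-PRT. The summed CPM of 10 osteoblast and osteocyte genes had a median of 37000 (21600 to 42800) after F-PRT and 37700 (35900 to 40900) after S-PRT, against 19900 (16300 to 28700) in Untreated bone, and F-PRT 3 was the lowest of the F-PRT libraries there too. Of these 10, 5 rose after F-PRT and 6 after S-PRT, and all 7 osteoclast genes rose after both, with sums of 872 to 2140 CPM after F-PRT and 1500 to 1870 CPM after S-PRT, against 707 to 1140 CPM in Untreated bone. The tendon and ligament markers Tnmd, Scx, Mkx, Thbs4, Kera and Egr1 had 5 of 6 genes higher after F-PRT and 3 of 6 after S-PRT, with sums of 108 to 137 CPM after F-PRT and 105 to 147 CPM after S-PRT, against 52.4 to 109 CPM in Untreated bone. Of 7 adipocyte genes 5 rose after F-PRT and 6 after S-PRT, with sums of 388 to 565 CPM after F-PRT and 363 to 573 CPM after S-PRT, against 186 to 303 CPM in Untreated bone. All 10 granulocyte genes fell after both beams, to sums of 565 to 738 CPM after F-PRT and 409 to 1160 CPM after S-PRT, against 3380 to 16000 CPM in Untreated bone, and 6 of 8 erythroid and 4 of 7 B cell genes fell as well. Of 12 muscle genes 0 passed in either comparison, with sums of 1850 to 9830 CPM after F-PRT and 2390 to 6670 CPM after S-PRT, against 306 to 4130 CPM in Untreated bone. Of 9 keratinocyte genes 8 rose after F-PRT and 1 after S-PRT, with sums of 4.12 to 229 CPM after F-PRT and 7.72 to 43.5 CPM after S-PRT. The sum of 10 chondrocyte markers, 6 collagen genes with Cnmd, Snorc, Sox5 and Sox6, none of which was at 0, was 1920, 2240, 874 and 2300 CPM after F-PRT and 2080, 2290, 2090 and 2350 CPM after S-PRT, against 2410, 1200, 1210 and 981 CPM in Untreated bone. Sox6, which fell after both beams, was 385 of the 2410 CPM in Untreated 1 and 227 of the 981 CPM in Untreated 4. The part of these cell types in the changes of the cartilage genes was not tested.

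**Figure D4:**
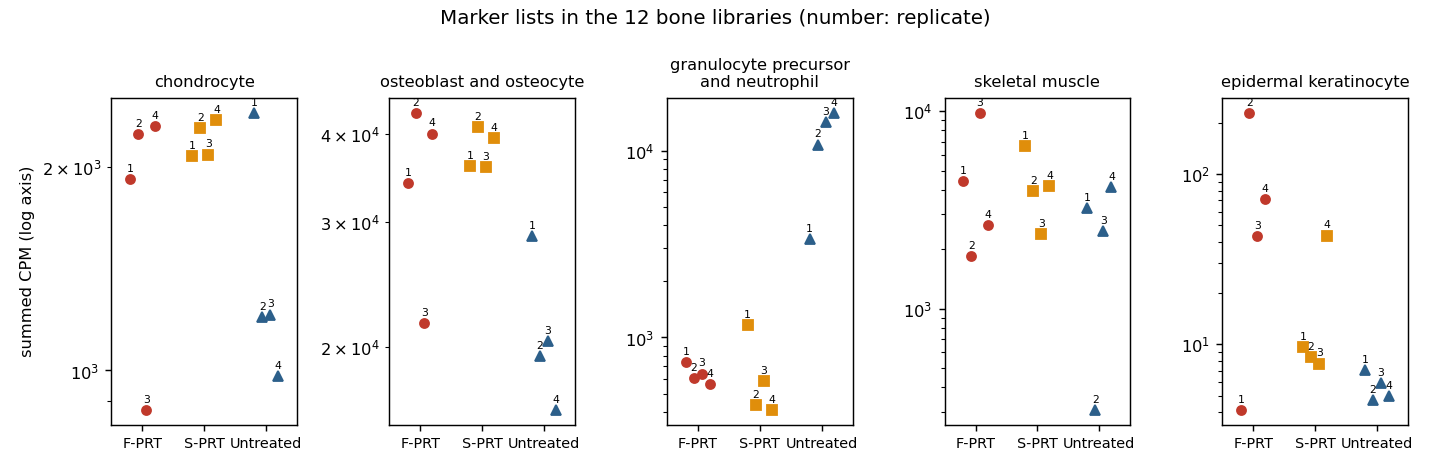
Summed CPM (log axes) of the genes that mark chondrocytes, osteoblasts and osteocytes, granulocytes, skeletal muscle and keratinocytes in the 12 bone libraries, by group and numbered by replicate. Granulocyte sums are lower in all 8 irradiated libraries (409 to 1160 CPM) than in the 4 Untreated ones (3380 to 16000 CPM), and F-PRT 3 is lowest for chondrocyte markers at 874 CPM.

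The order of the genes within a group was read from TPM, a share of transcripts that is corrected for gene length. After F-PRT, the mean TPM was highest for Chad, at 141 ± 71.7, followed by Comp at 70.1 ± 30.5, Pth1r at 37.5 ± 11.2 and Acan at 17.6 ± 10.7 (SD, n = 4), and every pair of neighbours overlapped in their libraries. After S-PRT Chad had 192 ± 36.9, Comp 76.0 ± 16.3, Pth1r 42.6 ± 8.14, Acan 24.5 ± 6.4 and Hapln1 12.8 ± 3.55 TPM (SD, n = 4), with no overlap between neighbours down to Matn3 at 5.17 ± 1.18. In Untreated bone Chad led with 37.2 ± 3.65 TPM, ahead of Comp at 25.8 ± 2.94, Pth1r at 17.8 ± 3.94 and Acan at 6.19 ± 2.71, and the next ranks, Hapln1, Matn3, Sox9, Ihh, Epyc and Matn1, overlapped from neighbour to neighbour. By mean TPM, Chad was first and Matn1 last in all 3 groups. Matn1 overlapped its neighbour in each group, and Chad overlapped Comp after F-PRT. In Untreated bone Acan also overlapped Hapln1. TPM values of bone are not compared between treatments, since the median log2 ratio over all tested genes was 0.71 for F-PRT against Untreated bone and 0.64 for S-PRT, where that of CPM was -0.01 for both.

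The tissue label was checked with all 24 libraries, irradiated ones included. Ibsp and Mepe, genes of bone cells, were listed at 0 in 12 of 12 skin libraries, and the keratinocyte gene Krt5 had 835 to 3600 TPM in skin and at most 11.2 TPM in bone, in F-PRT 2, while Untreated bone had at most 0.05 TPM. Untreated bone differed from Untreated skin in all 10 members, 9 being higher and Sox9 lower, in a comparison in which 65.2% of 20754 tested genes were called, 32.6% in each direction. Chad was higher by 8.33 on the log2 scale (SE 0.42), Comp by 8.05, Acan by 6.55, Hapln1 by 6.45, Ihh by 3.77, Matn1 by 2.96 and Pth1r by 2.53, and the highest adjusted p of the 10 was 0.0036, for Matn1. Matn3 had 275 counts over the Untreated bone libraries and 0 in Untreated skin, so that it was at least 114-fold higher when skin is set at 3 counts over the group. Epyc had 52 counts in bone and 1 in skin, a ratio of 64.6 with an exact 95% interval of 11.1 to 2600, which covers counting error only. Sox9, which hair follicle stem cells need in skin, was lower in bone by 20.7-fold in summed counts per depth (log2 -4.32, SE 0.33, adjusted p = 1.23e-10), with 1.00, 0.81, 0.99 and 0.76 TPM in Untreated bone and 26.2, 15.7, 16.5 and 12 TPM in Untreated skin. Pth1r had 21.2, 13.7, 21.2 and 15.2 TPM in Untreated bone and 5.02, 3.54, 1.71 and 2.33 TPM in Untreated skin, and the other 8 members averaged at most 0.115 TPM in Untreated skin.

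**Figure D5:**
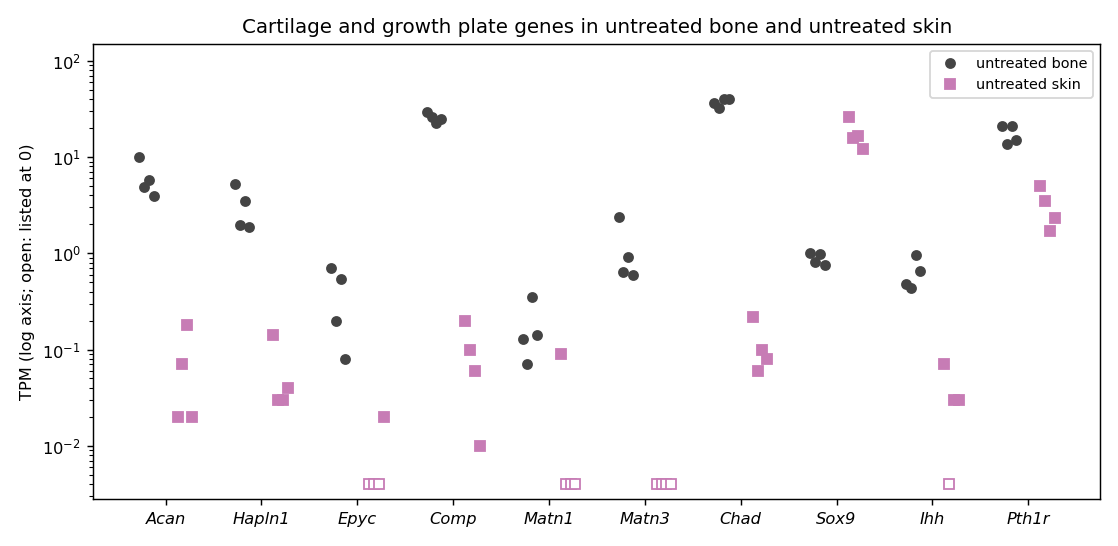
TPM (log axis) of the 10 genes in the 4 Untreated bone libraries and, to the right of each, the 4 Untreated skin libraries; open symbols are libraries listed at 0. Sox9 alone is higher in skin, at 12 to 26.2 TPM against 0.76 to 1.00 TPM in bone.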

How the data were processed

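RNA-seq of 12 bone and 12 skin libraries was read from the per-gene tables as deposited. Per the file headers these hold RSEM expected counts, TPM and FPKM, and build GRCm38 and the tools STAR, RSEM, cutadapt and FastQC are listed, without versions, in the submitters' processing notes. FPKM values, deposited beside the others, were not used. GENCODE M21 matched 55230 of 55471 identifiers (99.57%). The members, gene lists, tests and alternatives were chosen with earlier results of these data known. Expected counts were rounded and tested with edgeR 4.0.16 in R 4.3.3 (TMM scaling, filterByExpr, quasi-likelihood F test, Benjamini-Hochberg threshold 0.05) on the 12 bone libraries, or on all 24 for bone against skin. Log2 CPM values carry a prior count of 2. The alternatives were DESeq2 1.42.0, voom with quality weights in limma 3.58.1, RLE scaling, at least 1 CPM in 4 libraries or no filter at all, the 8 compared libraries alone, a replicate block and each library left out, and a fit without 3 bone libraries was added after seeing the data. All 10 members were named, with every cartilage collagen, up to 4 called genes of smallest p per list and comparison (where none was called, the 2 of smallest p), and the 6 genes nearest in pattern. Slfn4, Mepe and Krt5 and the Ihh to Acan ratio were chosen after values were seen. No pair of libraries of a group was close enough to be 1 library deposited again (chi-square per degree of freedom at least 9.54). Counting intervals and floors cover counting error only, since reads were not counted by molecule. The workflow was tested on simulated data.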

Additional observations from a re-analysis of the deposited data

Results flagged for a closer look

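Among the 30 sets of 4 bone libraries formed by the 10 genes and 3 groups, 2 held a library far from the other 3. Chance alone flags about 1 set in 20, a rate close to 2 in 30. Acan had 135 CPM in Untreated 1, against 41.2 to 56.1 CPM in the other Untreated libraries, a gap of 0.841 of the group's range, past Dixon's critical value for 4 samples. Matn3, a matrilin of cartilage matrix, had 14.9 CPM in Untreated 1, against 2.68 to 3.73 CPM in the others, a gap of 0.913 of the range. Both flags thus fell on Untreated 1, and the log2 CPM of Acan and Matn3 correlated at r = 0.97 in bone, so the flags are not independent. The same library had the lowest granulocyte sum of its group, 3380 CPM against 10800 to 16000 CPM, and the highest osteoblast sum, 28700 CPM. The part of these cells in the Acan and Matn3 values was not tested.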

How the results depend on the processing

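The number of cartilage genes called depended on the processing. After F-PRT, where 2 of 10 were called, it was 5 with no filter, 1 on the 8 compared libraries, 4 with voom quality weights and 7 without F-PRT 2, F-PRT 3 and Untreated 1, and ran from 1 to 6 with 1 library left out. After S-PRT, where 4 were called, it was 8 with no filter, 7 on the 8 libraries, 6 with voom quality weights and 9 without those 3, and ran from 2 to 8. RLE scaling and at least 1 CPM in 4 libraries left it at 2 after F-PRT and 4 after S-PRT. DESeq2 gave 3 after F-PRT and 4 after S-PRT. Leaving out F-PRT 3 and Untreated 1 moves the groups apart by construction. The cause of the other differences was not tested. Genes called over all tested ran from 4803 to 6727 after F-PRT and from 4054 to 6158 after S-PRT with 1 library left out. In the main fit they were 6161 of 18848 after F-PRT and 5380 of 18848 after S-PRT. Fits with no filter called 5515 and 4813 of 41800 genes. With voom quality weights, 7879 of 18848 genes were called after F-PRT and 6380 of 18848 after S-PRT, so all genes moved upward in number there too. DESeq2 called 6476 of 22671 genes after F-PRT and 5730 of 21878 after S-PRT. Without F-PRT 2, F-PRT 3 and Untreated 1, the calls were 4669 of 19514 genes after F-PRT and 5835 of 19514 after S-PRT. On the 8 libraries 5749 of 18212 were called after F-PRT and 4476 of 18044 after S-PRT. Between the beams the 1 called gene became 19 with DESeq2, 11 with no filter, 0 on the 8 libraries and 0 with a replicate block, and 0 to 1 with 1 library left out, with 0 members called in any of these left-out fits. Bone against skin kept 10 members in each, and from 13006 to 14151 genes; on the 8 libraries Matn1 and Epyc did not pass the filter and the other 8 were called.

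Directions turned only for changes that were not called. After S-PRT with voom, Col10a1 was -0.01 and Ihh -0.09. Between the beams without the 3 libraries, Col9a1, Col9a2, Col9a3, Comp, Matn3 and Sox9 were 0.13, 0.14, 0.16, 0.09, 0.25 and 0.01. With 1 library left out, F-PRT against Untreated gave Col10a1 from -0.68 to 0.02, Col11a2 from -0.02 to 0.44 and Col27a1 from -0.17 to 0.66; S-PRT against Untreated gave Col10a1 from -0.12 to 0.48 and Ihh from -0.17 to 0.39; F-PRT against S-PRT gave Col11a1 from -0.25 to 0.05, Col9a1 from -0.67 to 0.10, Col9a2 from -0.73 to 0.06, Col9a3 from -0.83 to 0.01, Comp from -0.46 to 0.03, Epyc from -0.52 to 0.27 and Matn3 from -0.48 to 0.27.

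Same-numbered libraries did not pair, with correlations of deviations from -0.261 to 0.187 in bone and -0.289 to -0.119 between Untreated bone and skin, and 0 to 2 of 4 libraries correlating best with their own number. With the replicate number as a block, 2 members (5625 of 18848 genes) were called after F-PRT and 3 members (4917 of 18848 genes) after S-PRT. At 3 to 28 counts of Matn1 and 6 to 52 of Ihh per bone library, depth limits what could be seen of these 2 genes.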

Other observations

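In skin, the cartilage genes other than Sox9 and Pth1r were at the edge of detection, and their values are given without a test. Acan had 3, 0, 2 and 4 expected counts in skin F-PRT libraries and 15, 2, 3 and 0 in skin S-PRT libraries, against 4, 15, 25 and 4 in Untreated skin. Matn3 had 1 count in a single S-PRT library and 0 in the other 11 skin libraries. Hapln1 had 5, 25, 11 and 20 counts after F-PRT and 8, 27, 13 and 2 after S-PRT, against 5, 6, 5 and 7 in Untreated skin. Col2a1, the cartilage fibril collagen, had 25, 11, 29 and 44 counts after F-PRT and 25, 25, 27 and 41 after S-PRT, against 4, 1, 2 and 4 in Untreated skin, at skin depths of 16.42 to 22.09 megacounts. On the TPM scale the groups overlapped, with 0.1 to 0.29 TPM after F-PRT and 0.19 to 0.28 TPM after S-PRT, against 0.01 to 0.26 TPM in Untreated skin. The shift of TPM between treatments was not measured in skin, and how many other skin genes separated in their counts was not counted. Col2a1 in skin was singled out after its values were seen.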
